A study of Homo sapiens with 11 samples.

Results

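The BCL2 family decides at the mitochondrial outer membrane whether a stressed cell dies. BH3-only proteins (here BCL2L11, BMF, BIK, BBC3 and PMAIP1) carry the death signal, prosurvival proteins (MCL1, BCL2L1 and BCL2A1) bind and hold them, and the effectors BAX and BAK1 form the pores that release cytochrome c. In epithelial cells, growth factor signalling through ERK and AKT is known to keep some BH3-only genes low and to support prosurvival members, while FOXO factors, which AKT keeps out of the nucleus, can switch on BCL2L11. Here 10 genes of this family, chosen by symbol for their roles, are described in 11 libraries of hTert-HME1, human breast epithelial cells kept dividing by added telomerase. All 10 were among the 40460 genes of the deposited table, and 9 passed the filter on low values (at least 10 on the linear scale in at least 2 libraries); BIK did not.

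Total RNA was sequenced from cells at passage 6 that had been transfected with control siRNA (named control-2) or BRCA2 siRNA (named BRCA2-1) and grown in mammary epithelial growth medium that was complete, with epidermal growth factor (EGF), or lacked EGF. Control cells with EGF, BRCA2 siRNA cells with EGF and BRCA2 siRNA cells without EGF have 3 libraries each (biological replicates A, B and C), and control cells without EGF have 2 (A and C). Each target had 1 siRNA, so effects of its sequence on other transcripts cannot be told apart from effects on BRCA2, and the time without EGF is not given in the sources used here. Whether the replicates were separate transfections is not stated, and p-values measure only the spread between these libraries. Values are log2 as deposited, so a difference of 1 is a doubling. They are not corrected for gene length, so levels are compared only within a gene. The exception is the marker sums below, which add the uncorrected levels of different genes.

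The siRNA target was not lower where its label says. BRCA2 (ENSG00000139618) averaged 12.35 with control siRNA and 12.40 with BRCA2 siRNA in complete medium, a difference of 0.05 ± 0.12 (standard error; adjusted p = 0.999). On EGF withdrawal BRCA2 fell under control siRNA, to 11.44 and 11.65 from 12.13 to 12.48 (adjusted p = 0.000444), and in EGF-free medium the BRCA2 siRNA libraries held more of it, by 0.74 ± 0.13 (adjusted p = 0.00397). The name BRCA2 siRNA below therefore stands for the label of a library, and no direction is attributed to loss of BRCA2. For the basal epithelial identity of the line, the linear levels of 10 basal markers (KRT5, KRT14, TP63 and others) were summed. The log2 of the sum lay between 18.51 and 18.69 in the 6 libraries with EGF and between 19.20 and 19.78 in the 5 without. KRT5 (17.21 to 18.78) and KRT14 (16.30 to 17.85) make up most of this sum, which says little about the other markers. EPCAM lay between 0.15 and 0.67, below the filter. Of the 9 tested, 6 rose on withdrawal under either siRNA, against 24.7% and 13.4% of all genes. TP63, ITGB4 and LAMB3 did not pass under either, and LAMB3 differed by -0.92 ± 0.54 under control siRNA. Of 7 leukocyte and endothelial markers 6 were in the table, and CD3E, CD68 and CDH5 had log2 values at or below -0.01 in every library, while PTPRC (2.33 to 3.10) and VWF (2.74 to 3.70) were higher; the sum of the 6 was 4.62 to 5.14 with EGF, 5.60 and 6.03 in control siRNA without EGF and 5.05 to 5.14 in BRCA2 siRNA without EGF, and CD14, the single one tested, rose on withdrawal by 2.00 under control siRNA (adjusted p = 0.000373) and by 0.82 under BRCA2 siRNA (adjusted p = 0.0497). The sum of 7 fibroblast markers was 10.69 to 11.06 with EGF. Without EGF it was 13.04 and 13.16 in control siRNA and 11.84 to 12.56 in BRCA2 siRNA. COL3A1 gave the largest part of this sum in every library, by values not corrected for gene length, and COL1A2 lay below the filter. Of the 6 tested, 6 rose on withdrawal under control siRNA and 3 under BRCA2 siRNA, against 24.7% and 13.4% of all genes. The part of these marker lists in the results below was not tested.

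In every gene the replicate A libraries had the same mean as those of B and C together, so the deposited values had been centred between A and the rest. Since A holds 1 library of each group and B lacks a control library without EGF, this step moved part of the group differences, and values within A and within C are given beside the main pooled ones and, for withdrawal, in the plot of within-replicate differences of all 10 members. Libraries with EGF also varied. In 6 members replicate C with EGF lay below both A and B under either siRNA, and by as much as 1.61 (B minus C for BBC3) and 1.63 (B minus C for BCL2A1) under control siRNA. In BCL2L11 and BMF replicate C with EGF lay above both A and B under either siRNA. How many of all genes show either order was not counted.

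EGF withdrawal under control siRNA asks how the balance of these genes stands when the growth factor is missing. The BH3-only genes BCL2L11 and BMF rose 3.44-fold and 3.39-fold, while all 3 prosurvival genes and both effectors fell, and so did the BH3-only gene PMAIP1. At an adjusted p below 0.05 in limma, 8 of the 9 tested members passed, 2 higher and 6 lower. Of all 17945 genes tested 50.8% passed, 24.7% higher and 26.1% lower. The median difference was -0.66 over the 9 members and 0.00 over all genes tested, and the count of members was 5 without control replicate A without EGF (34.3% of all genes in that fit), 9 without control replicate C with EGF (55.9%) and 2 from replicates B and C alone (11.6%), where control cells without EGF have 1 library. In bulk RNA, a shift in the share of cells that express a gene and a shift in the level per cell cannot be told apart.

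**Figure D1:**
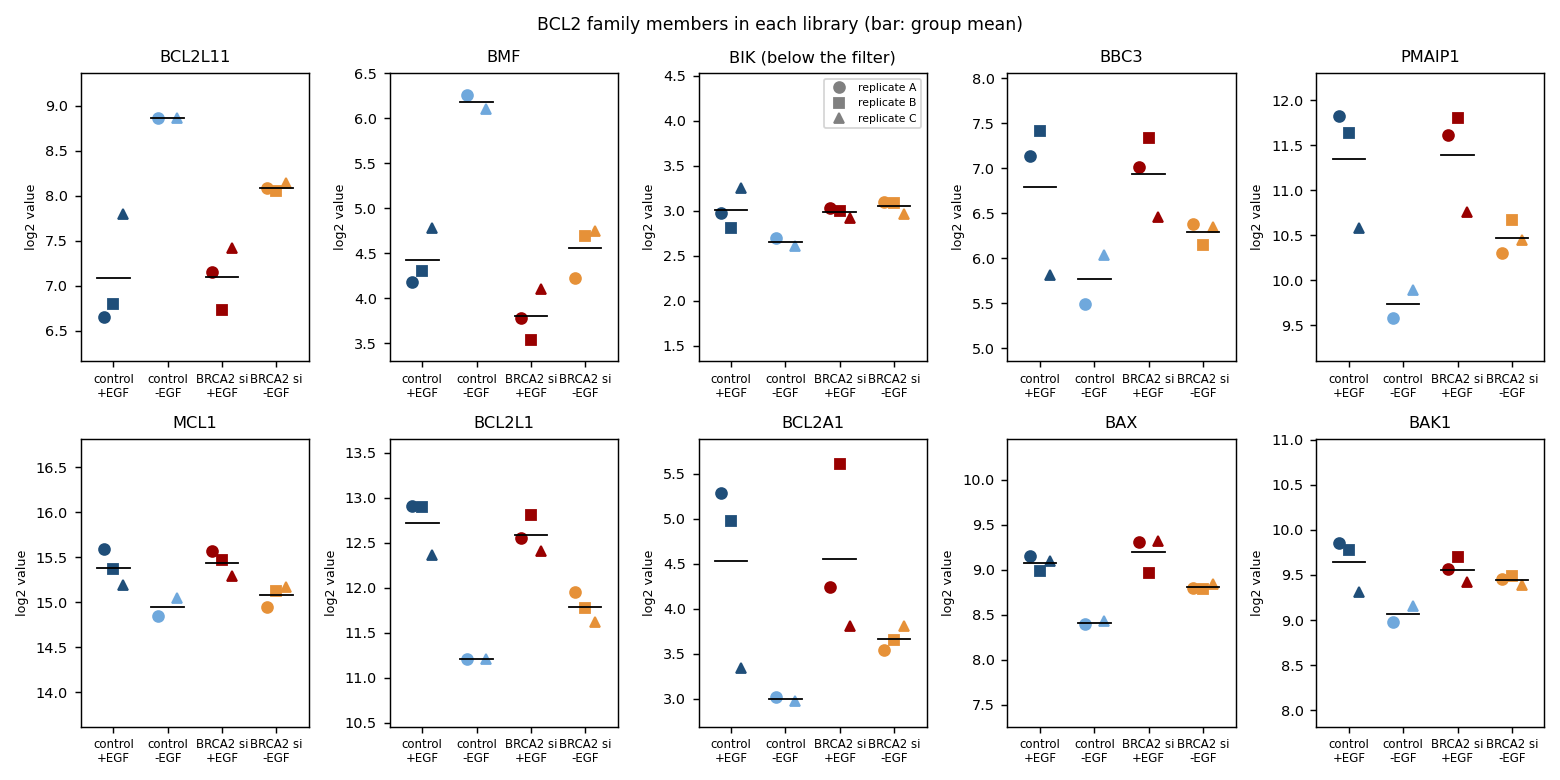
Deposited log2 value (vertical axis) of each of the 10 members in each of the 11 libraries, in 4 groups along the horizontal axis, with circles, squares and triangles for replicates A, B and C and a bar for the group mean; each panel is centred on its own level. BCL2L11 and BMF are highest and BCL2L1 and BAX lowest in both control libraries without EGF. Under control siRNA replicate C with EGF lies apart from A and B for BBC3, PMAIP1 and BCL2A1.

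The promoters of the genes that rose are shown first, because BCL2L11 is a textbook FOXO target. RefSeq promoter windows of 300 bases (250 before to 50 after the start, build GRCh38.p14, which is not the hg19 build named for the expression data) were found for 8 of the 10 members, with 10 windows in all. Capitals mark GTAAACA, the FOXO motif, searched on both strands together with AP-1 (TGACTCA), CRE (TGACGTCA), the composite motif of ATF4 and C/EBP (TGATGCAA) and the E-box (CACGTG), whose matches did not overlap it in these windows.
BCL2L11, chr2:111120664-111120963, plus strand: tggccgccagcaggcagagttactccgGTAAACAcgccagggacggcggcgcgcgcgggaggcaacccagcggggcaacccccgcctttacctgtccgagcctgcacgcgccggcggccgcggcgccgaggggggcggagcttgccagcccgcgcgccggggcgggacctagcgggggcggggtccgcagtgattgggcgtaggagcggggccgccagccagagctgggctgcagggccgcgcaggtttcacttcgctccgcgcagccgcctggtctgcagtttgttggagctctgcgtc
BMF, first start, chr15:40108830-40109129, minus strand: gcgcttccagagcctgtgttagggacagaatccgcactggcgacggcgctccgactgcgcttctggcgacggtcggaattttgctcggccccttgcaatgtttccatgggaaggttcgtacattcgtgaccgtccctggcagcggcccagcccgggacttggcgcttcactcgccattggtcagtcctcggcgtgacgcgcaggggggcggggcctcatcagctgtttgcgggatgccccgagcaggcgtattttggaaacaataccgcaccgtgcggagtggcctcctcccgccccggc
BMF, second start, chr15:40106917-40107216, minus strand: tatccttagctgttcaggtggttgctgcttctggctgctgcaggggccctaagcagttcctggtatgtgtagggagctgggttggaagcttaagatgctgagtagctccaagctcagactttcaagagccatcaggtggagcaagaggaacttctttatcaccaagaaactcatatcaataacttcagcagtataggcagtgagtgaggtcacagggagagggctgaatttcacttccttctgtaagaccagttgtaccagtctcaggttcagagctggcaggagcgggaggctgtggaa
The FOXO motif stood at position -223 of BCL2L11, counted from the start, and in none of the other 9 windows of members; 3.42% of 35116 promoter windows hold it. Neither BMF window held any of the 5 motifs, which says only that these letters are not in these windows.

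BCL2L11 (ENSG00000153094) encodes BIM, which binds every prosurvival relative and can activate BAX and BAK1 directly. Under control siRNA its log2 value was 6.66, 6.79 and 7.80 with EGF (replicates A, B and C) and 8.86 and 8.87 without EGF (A and C). Both libraries without EGF lay above all 3 with EGF, and the highest of those was replicate C. The rise was 1.78 ± 0.29 (adjusted p = 0.000533), 2.21 within replicate A and 1.07 within C; from replicates B and C alone it was 1.57 and no longer passed (adjusted p = 0.074). Its exons overlap those of the antisense noncoding gene MIR4435-2HG over 10.9% of their length, and the strand setting of the counting is not given. MIR4435-2HG itself was lower in both control libraries without EGF, at 11.14 and 11.11, than in the 3 with EGF, at 11.54 to 11.56.

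BMF (ENSG00000104081), a BH3-only protein tied to the cytoskeleton that is known to act when epithelial cells lose attachment, had values of 4.18, 4.31 and 4.78 with EGF and 6.26 and 6.11 without. The groups did not overlap. The rise was 1.76 ± 0.24 (adjusted p = 0.000155), 2.08 within replicate A and 1.33 within C, and it passed in all 14 alternatives in which BMF was tested.

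PMAIP1 (ENSG00000141682) encodes NOXA, a BH3-only protein that chiefly opposes MCL1 and is induced by ATF4. It was 11.82, 11.64 and 10.58 with EGF and 9.58 and 9.89 without EGF. Here the gap to replicate C with EGF was small beside the spread among the libraries with EGF. PMAIP1 fell 3.05-fold, by 1.61 ± 0.36 on the log2 scale (adjusted p = 0.00323), with -2.24 within replicate A and -0.68 within C; the call ended from replicates B and C alone (-1.21, adjusted p = 0.177).

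BBC3 (ENSG00000105327) encodes PUMA, a BH3-only protein that binds every prosurvival relative, and did not pass. Its values were 7.14, 7.42 and 5.81 with EGF against 5.49 and 6.04 without, so replicate C with EGF lay between the libraries without EGF. The difference was -1.02 ± 0.41 (adjusted p = 0.0547), with opposite signs within replicates, -1.65 in A and 0.23 in C. Without control replicate C with EGF it was -1.51 (adjusted p = 0.000792), and under quantile normalization -1.33 (adjusted p = 0.0209). The fifth BH3-only gene, BIK (ENSG00000100290), lay between 2.60 and 3.25 in all 11 libraries, below the filter at 3.32, and was not tested.

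BCL2L1 (ENSG00000171552), which encodes BCL-XL, had the smallest adjusted p of the 9 tested members. It was 12.90, 12.90 and 12.36 with EGF and 11.21 in both libraries without EGF. No value with EGF came near those without. The fall was 2.85-fold, by 1.51 ± 0.17 on the log2 scale (adjusted p = 5.08e-05), with -1.69 within replicate A and -1.15 within C, and it passed in all 15 alternatives. A gene level does not separate the long, protective transcript from the short, pro-apoptotic one. The antisense gene ABALON overlaps 43.0% of the exonic bases of BCL2L1 in the GENCODE annotation, and its reads could not be told apart if strand was not used.

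MCL1 (ENSG00000143384), a short-lived guard that must be made continuously, was 15.59, 15.37 and 15.20 with EGF and 14.85 and 15.05 without. The gap between the groups was narrow. MCL1 fell 1.35-fold, by 0.43 ± 0.13 on the log2 scale (adjusted p = 0.0171), -0.74 within replicate A and -0.14 within C. This call ended without control replicate A with EGF (-0.33, adjusted p = 0.0649), without control replicate A without EGF (-0.33, adjusted p = 0.154) and from replicates B and C alone (-0.23, adjusted p = 0.381).

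BCL2A1 (ENSG00000140379), a prosurvival gene known as an NF-kB target, is shown with its promoter because that window holds the composite motif of ATF4 and C/EBP, in capitals, at position -63; 0.866% of all windows hold it.
BCL2A1, chr15:79971147-79971446, minus strand: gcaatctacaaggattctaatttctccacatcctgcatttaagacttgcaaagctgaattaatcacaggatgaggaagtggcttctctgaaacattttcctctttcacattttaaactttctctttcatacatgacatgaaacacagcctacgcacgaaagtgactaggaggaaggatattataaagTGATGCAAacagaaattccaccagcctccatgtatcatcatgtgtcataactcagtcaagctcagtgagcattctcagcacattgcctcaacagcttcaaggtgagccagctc
Its values were 5.29, 4.97 and 3.34 with EGF and 3.02 and 2.97 without, and both of the latter lie below the filter. Replicate C with EGF was close to the libraries without EGF. BCL2A1 fell by 1.53 ± 0.56 on the log2 scale (adjusted p = 0.0395), -2.26 within replicate A and -0.36 within C. The call was lost on leaving out any of 4 of the 5 libraries compared: control A with EGF (adjusted p = 0.135), control B with EGF (0.102), control A without EGF (0.129) and control C without EGF (0.135). It was also lost with a term for replicate A (adjusted p = 0.0509), in a fit of its 2 groups alone (0.0576) and from replicates B and C alone (-1.18, adjusted p = 0.386).

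Both effectors fell as well. BAX (ENSG00000087088), an effector that moves from the cytosol to mitochondria, is shown with its promoter because that window holds the E-box CACGTG, in capitals, at positions -138, -93, -45 and -14; 7.26% of all windows hold at least 1. The window of BBC3, which did not pass, also holds an E-box, at -232, and an AP-1 match, at -113 (AP-1 in 4.95% of all windows).
BAX, chr19:48954625-48954924, plus strand: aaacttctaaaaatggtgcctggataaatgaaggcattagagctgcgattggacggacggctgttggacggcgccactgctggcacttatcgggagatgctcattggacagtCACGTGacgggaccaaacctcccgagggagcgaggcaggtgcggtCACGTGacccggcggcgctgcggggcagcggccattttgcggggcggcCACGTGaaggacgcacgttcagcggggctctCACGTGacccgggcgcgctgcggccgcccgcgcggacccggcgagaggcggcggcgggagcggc
BAX was 9.16, 8.99 and 9.10 with EGF and 8.40 and 8.43 without, groups that lay well apart. The fall was 1.59-fold, by 0.66 ± 0.12 on the log2 scale (adjusted p = 0.00095), with -0.75 within replicate A and -0.67 within C. It was the member whose difference varied least between these replicates, although from replicates B and C alone it no longer passed (-0.61, adjusted p = 0.102).

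BAK1 (ENSG00000030110), which resides on mitochondria and is held by MCL1 and BCL-XL, was 9.85, 9.78 and 9.31 with EGF and 8.98 and 9.15 without. Again replicate C with EGF was the closest to the libraries without EGF. BAK1 fell by 0.58 ± 0.15 on the log2 scale (adjusted p = 0.00841), -0.88 within replicate A and -0.16 within C. The call ended without control replicate A without EGF (-0.50, adjusted p = 0.0799) and from replicates B and C alone (-0.39, adjusted p = 0.31).

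**Figure D2:**
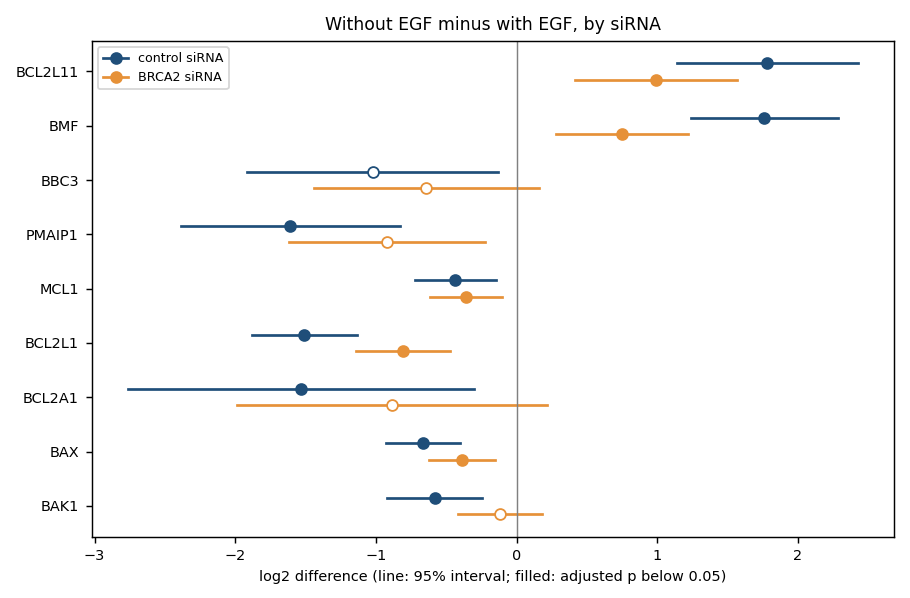
Log2 difference between libraries without and with EGF (horizontal axis) for the 9 tested members, in blue under control siRNA and in orange under BRCA2 siRNA; lines are 95% intervals from the moderated fit and filled points have an adjusted p below 0.05. BCL2L11 and BMF lie to the right of 0 under both siRNAs, the other 7 to the left, and each point for BRCA2 siRNA is nearer 0 than its counterpart.

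The second withdrawal comparison asks how these genes stand without EGF when the BRCA2 siRNA is present. BCL2L11 and BMF rose again, by 1.98-fold and 1.68-fold, and BCL2L1, MCL1 and BAX fell, by 1.75-fold, 1.28-fold and 1.31-fold. In all 5 of 9 tested members passed, 2 higher and 3 lower, against 27.1% of all genes tested (13.4% higher and 13.8% lower). Most of these calls rested on few libraries: the count was 1 without BRCA2 siRNA replicate A with EGF (12.4% of all genes in that fit), 2 without B with EGF (22.6%), 3 without A without EGF (21.1%), 1 without B without EGF (15.9%), 1 without C without EGF (14.7%) and 0 from replicates B and C alone (0.262%). It was 3 under quantile normalization (22.4%), 8 when the libraries with EGF were only those of A and B (37.1%), and 3 when they were only those of A and C (27.6%).

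BCL2L11 was 7.15, 6.74 and 7.42 with EGF and 8.08, 8.05 and 8.14 without, in replicates A, B and C. All 3 libraries without EGF lay above all 3 with EGF and close together. The rise was 0.99 ± 0.26 (adjusted p = 0.0188), with 0.93, 1.32 and 0.72 within A, B and C. It did not pass without BRCA2 siRNA replicate A with EGF (1.01, adjusted p = 0.0586), B with EGF (0.80, 0.0561), B without EGF (1.01, 0.0522) or C without EGF (0.96, 0.0629), or from replicates B and C alone (1.02, 0.207).

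For BMF the values were 3.78, 3.54 and 4.10 with EGF and 4.22, 4.69 and 4.75 without. The groups touched closely but did not overlap. The rise was 0.75 ± 0.21 (adjusted p = 0.0247), with 0.45, 1.15 and 0.65 within A, B and C. Quantile normalization ended the call (0.55, adjusted p = 0.07), as did leaving out BRCA2 siRNA replicate A with EGF (0.74, 0.0793), B with EGF (0.62, 0.0766), B without EGF (0.68, 0.0834) or C without EGF (0.65, 0.0908), keeping only the libraries with EGF of A and C (0.62, 0.0736) and keeping replicates B and C alone (0.90, 0.158).

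BCL2L1 was 12.55, 12.81 and 12.41 with EGF and 11.95, 11.77 and 11.62 without, with no overlap. Its fall of 0.81 ± 0.15 on the log2 scale (adjusted p = 0.00417) passed in 15 of 16 alternatives and was lost from replicates B and C alone (-0.91, adjusted p = 0.112). Within A, B and C the difference was -0.60, -1.04 and -0.79.

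MCL1 was 15.57, 15.47 and 15.29 with EGF and 14.95, 15.13 and 15.17 without. It fell by 0.36 ± 0.12 on the log2 scale (adjusted p = 0.0427). This was the weakest call: it passed in 6 of 16 alternatives, with adjusted p from 0.00922 to 0.37, and was lost without A with EGF, without B with EGF, and without A, B or C without EGF (adjusted p = 0.153, 0.0839, 0.135, 0.0873 and 0.071). Quantile normalization moved the difference to -0.17 (adjusted p = 0.24), and from replicates B and C alone it was -0.23 (adjusted p = 0.37).

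BAX was 9.31, 8.97 and 9.32 with EGF and 8.80, 8.79 and 8.84 without. It fell by 0.39 ± 0.11 on the log2 scale (adjusted p = 0.0216). Leaving out A with EGF, C with EGF, or A, B or C without EGF raised the adjusted p to 0.0935, 0.0634, 0.0541, 0.069 and 0.0552, no filter on low values to 0.0569, and replicates B and C alone to 0.315.

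The other 4 tested members did not pass under BRCA2 siRNA. PMAIP1 was 11.61, 11.80 and 10.76 with EGF and 10.30, 10.67 and 10.44 without, a difference of -0.92 ± 0.32 (adjusted p = 0.0518). The libraries did not overlap, and the call was gained with the replicate block (adjusted p = 0.0153), in a fit of its 2 groups alone (0.0228) and without BRCA2 siRNA replicate C with EGF (-1.23, 0.0151). BBC3 differed by -0.64 ± 0.36 (adjusted p = 0.205), from 7.01, 7.34 and 6.46 to 6.38, 6.15 and 6.35. BCL2A1 differed by -0.89 ± 0.50 (adjusted p = 0.204), with values of 4.24, 5.61 and 3.80 with EGF and 3.53, 3.65 and 3.81 without; its replicates disagreed, with -1.96 within B and 0.00 within C. BAK1 differed by -0.12 ± 0.14 (adjusted p = 0.54), with a 95% interval from -0.42 to 0.18.

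**Figure D3:**
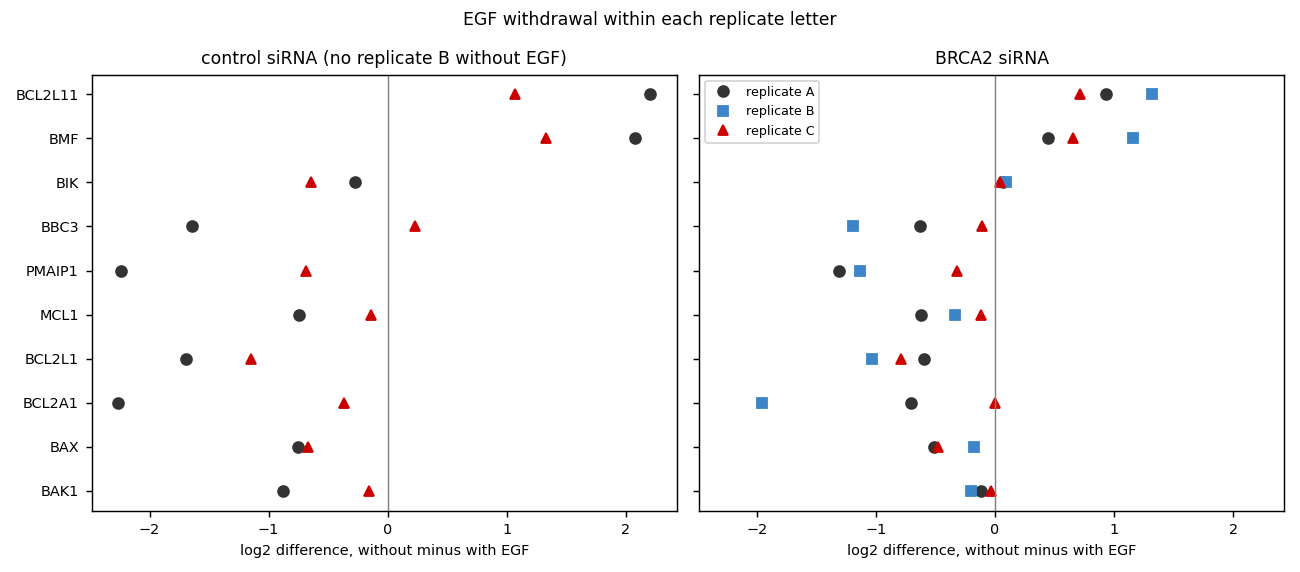
Difference between the library without EGF and that with EGF of the same replicate letter (horizontal axis, log2) for all 10 members, under control siRNA on the left, where no replicate B without EGF is present, and under BRCA2 siRNA on the right. BCL2L11 and BMF are above 0 in each of the 5 pairs and PMAIP1, MCL1, BCL2L1, BAX and BAK1 below 0 in each, while BBC3 lies at 0.23 in replicate C under control siRNA.

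Whether the siRNAs differ in their withdrawal response was tested as an interaction, the difference under BRCA2 siRNA minus that under control siRNA. None of the 9 tested members passed in limma, against 3.32% of all genes tested (1.38% higher and 1.93% lower). An unadjusted p below 0.05 was found for 3 of the 9 members and for 3981 of the 17945 genes tested. The sizes were -1.01 ± 0.32 for BMF (adjusted p = 0.101), -0.79 ± 0.39 for BCL2L11 (0.264), 0.70 ± 0.23 for BCL2L1 (0.106), 0.69 ± 0.48 for PMAIP1 (0.431) and 0.46 ± 0.21 for BAK1 (0.213). Within replicates A and C the interaction was -1.63 and -0.67 for BMF, -1.28 and -0.35 for BCL2L11, 1.09 and 0.36 for BCL2L1, 0.93 and 0.36 for PMAIP1 and 0.76 and 0.12 for BAK1, each larger in A. Without control replicate C with EGF 8.95% of all genes and 4 members passed: BCL2L11 (-1.15, adjusted p = 0.0223), BMF (-1.19, 0.0377), BCL2L1 (0.88, 0.0175) and BAK1 (0.63, 0.0275). When the libraries with EGF were only those of A and B 4 passed too (5.52% of all genes), with PMAIP1 (0.76, adjusted p = 0.0494) in place of BMF. No gene at all passed without control replicate A with EGF, without control replicate A or C without EGF, without BRCA2 siRNA replicate C with EGF, or from replicates B and C alone. For MCL1 the interaction was 0.08 ± 0.18, with a 95% interval from -0.31 to 0.46.

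Comparing the siRNAs within a medium asks for the effect of the BRCA2 siRNA itself. With EGF none of the 9 tested members passed in limma, against 0.00557% of all genes tested, a single gene. At an unadjusted p below 0.05 there were 1 of the 9 members (BMF) and 508 of the 17945 genes tested. BMF was 3.78, 3.54 and 4.10 with BRCA2 siRNA and 4.18, 4.31 and 4.78 with control siRNA. All 3 values with BRCA2 siRNA lay below all 3 with control siRNA, and the difference was -0.62 ± 0.21 (adjusted p = 0.999). The other 8 differences ran from -0.13 (BCL2L1) to 0.15 (BBC3). Their precision was uneven: the 95% interval for BCL2L11 ran from -0.56 to 0.60 and that for MCL1 from -0.20 to 0.31.

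Without EGF, BRCA2 siRNA libraries had less BMF and more BCL2L1 and BAX than control siRNA, 3 of 9 tested members (1 lower and 2 higher), against 20.5% of all genes tested (11.2% higher and 9.36% lower). This comparison shares the 2 control libraries without EGF with the withdrawal comparison under control siRNA, so the differences are not independent of those above. BMF was 4.22, 4.69 and 4.75 against 6.26 and 6.11 with control siRNA, a gap far wider than the spread in either group. It was lower by 1.63 ± 0.24 on the log2 scale, a difference of -1.63 (adjusted p = 0.00234), or -2.04 within replicate A and -1.35 within C, and the call was lost from replicates B and C alone (-1.38, adjusted p = 0.303).

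BCL2L1, at 11.95, 11.77 and 11.62 against 11.21 in both control libraries, was higher by 0.57 ± 0.17 (adjusted p = 0.0348), and BAX, at 8.80, 8.79 and 8.84 against 8.40 and 8.43, by 0.39 ± 0.12 (adjusted p = 0.0391). Neither group overlapped, and within replicates A and C the difference was 0.74 and 0.41 for BCL2L1 and 0.40 and 0.41 for BAX. Both calls were lost without control replicate A, without control replicate C, and without BRCA2 siRNA replicate A or B (adjusted p for BCL2L1 0.164, 0.146, 0.125 and 0.0834, for BAX 0.191, 0.148, 0.0975 and 0.089), and that of BAX also without BRCA2 siRNA replicate C (0.0799). From replicates B and C alone neither passed (adjusted p = 0.528 and 0.519), nor did BCL2L1 with no trend (0.0539) or BAX with no filter (0.0894) or a term for replicate A (0.0523). BCL2L11 was lower in each BRCA2 siRNA library without EGF than in either control library, by a difference of -0.77 ± 0.29 that did not pass (adjusted p = 0.0831). It passed in a fit of these groups alone (adjusted p = 0.00037), as did PMAIP1 (0.74, 0.00119), BCL2A1 (0.67, 0.0284) and BAK1 (0.38, 0.00767), which made 7 members in that fit, where 37.8% of all genes passed.

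**Figure D4:**
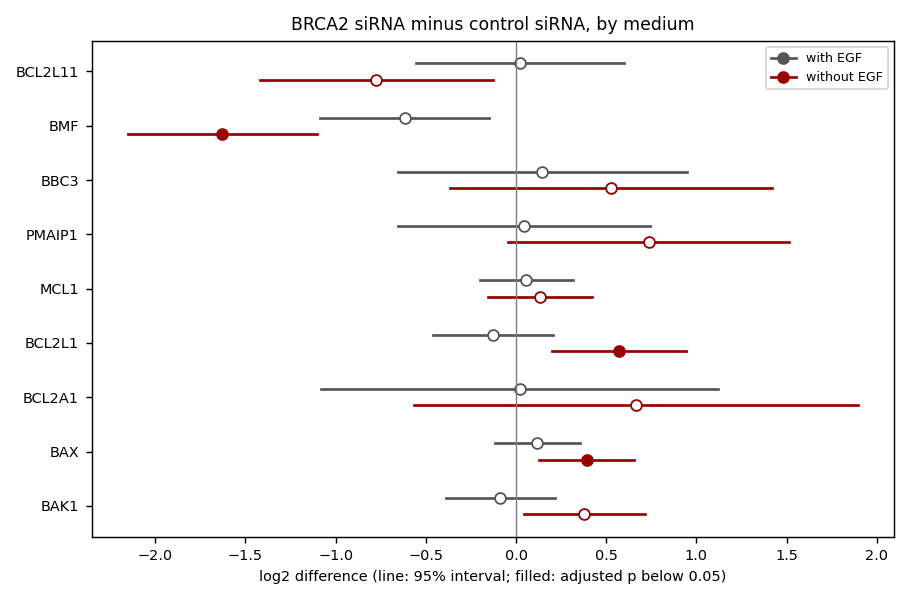
Log2 difference between BRCA2 siRNA and control siRNA libraries (horizontal axis) for the 9 tested members, in grey with EGF and in red without EGF; lines are 95% intervals and filled points have an adjusted p below 0.05. Filled points are BMF, BCL2L1 and BAX without EGF.

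Ordered by group mean, BCL2L11 went from 7.08 (SD 0.62, control with EGF) and 7.10 (SD 0.35, BRCA2 siRNA with EGF), which did not differ beyond their spread, to 8.09 (SD 0.04, BRCA2 siRNA without EGF) and 8.87 (control without EGF). The groups without EGF did not overlap, but their difference did not pass in limma (adjusted p = 0.0831). BCL2L1 ran the other way, from 12.72 (SD 0.31) and 12.59 (SD 0.20) with EGF, again within their spread, to 11.78 (SD 0.16) with BRCA2 siRNA and 11.21 with control siRNA without EGF. For BCL2L1 the difference between the groups without EGF passed in limma (adjusted p = 0.0348), and in 9 of 15 alternatives. BMF took another order, with 3.81 (SD 0.28) in BRCA2 siRNA with EGF, 4.42 (SD 0.31) in control with EGF, 4.56 (SD 0.29) in BRCA2 siRNA without EGF and 6.18 in control without EGF. The middle 2 overlapped, and the difference between the siRNAs with EGF did not pass in limma (adjusted p = 0.999).

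The wider family gives the setting for these members. Of 13 further BCL2 family genes 10 were tested, and 3 fell without EGF: BCL2L12 (-0.97 ± 0.14), the mitophagy receptor BNIP3 (-0.88 ± 0.12) and the effector-like BOK (-0.50 ± 0.11). None rose. The shares over all genes were 26.1% lower and 24.7% higher, and the median of the list was -0.38 against 0.00. BCL2, the founding prosurvival gene, differed by -0.13 ± 0.21 and the BH3-only genes BID and BAD by -0.20 ± 0.09 and -0.27 ± 0.12, none of which passed. Under BRCA2 siRNA BNIP3 fell (-0.54 ± 0.10) and BCL2L14 rose (0.63 ± 0.21), with a median of -0.09, against 13.8% of all genes lower and 13.4% higher. BCL2L14 lay near the filter at 3.32 there, with 3.11, 3.37 and 2.70 with EGF and 3.65, 3.63 and 3.80 without. Its call was marginal in limma (adjusted p = 0.0435). For BCL2L12 the interaction passed in limma (0.94 ± 0.19, adjusted p = 0.0307), 1 of the 10 tested against 3.32% of all genes. It was 1.15 within replicate A and 0.56 within C. No call was possible in the fits named above in which no gene passed, and the other alternatives were not examined for BCL2L12.

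Downstream of the pores, the apoptosome joins cytochrome c, APAF1 and caspase-9, and inhibitor of apoptosis proteins hold the caspases back. Under control siRNA 8 of 17 such genes fell and 2 rose, against 26.1% and 24.7% of all genes, with a median of -0.16. Cytochrome c, CYCS, fell from 14.28, 14.32 and 14.00 to 12.95 and 13.04 (-1.21 ± 0.12), the inhibitor and mitotic protein BIRC5 by 1.00 ± 0.11 and the mitochondrial protease HTRA2 by 0.58 ± 0.12. The initiator caspase CASP9 rose by 0.88 ± 0.17, from 5.50, 5.31 and 5.29 to 6.15 and 6.33, and BIRC6 by 0.23 ± 0.08. Both death-promoting and death-restraining genes are among those that fell. Under BRCA2 siRNA 6 fell and none rose (median -0.22), against 13.8% and 13.4% of all genes, again with CYCS (-0.73 ± 0.11), BIRC5 (-0.49 ± 0.10) and HTRA2 (-0.44 ± 0.10).

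Among 14 tested partners and turnover factors of the family, 4 rose and 6 fell under control siRNA, against 24.7% and 26.1% of all genes, with a median of -0.15; the share that rose is near that of all genes. The ubiquitin ligases TRIM17, FBXW7, HUWE1 and BTRC rose by 1.18 ± 0.19, 0.45 ± 0.08, 0.45 ± 0.10 and 0.20 ± 0.08. The channel genes VDAC1 and VDAC2 changed by -0.71 ± 0.12 and -0.42 ± 0.11 and the BID receptor MTCH2 by -0.52 ± 0.09. Under BRCA2 siRNA TRIM17 rose (0.99 ± 0.17) and 4 genes fell, among them VDAC1, VDAC2 and MTCH2 by 0.35, 0.47 and 0.31 on the log2 scale, with a median of -0.10, against 13.4% of all genes higher and 13.8% lower.

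Of 18 transcription factors known to act on the family, 6 rose and 3 fell under control siRNA (median -0.03), a share near the 50.8% of all genes that passed. FOXO1 rose from 7.44, 7.69 and 8.24 to 10.54 and 10.53 (2.74 ± 0.21), FOXO4 by 1.31 ± 0.16, STAT5A by 0.89 ± 0.13 and FOXO3 by 0.77 ± 0.09; TP73 (2.43 ± 0.45) and STAT3 (0.21 ± 0.08) were the others. ATF4, the stress factor that acts on PMAIP1, fell from 15.19, 15.17 and 14.68 to 13.59 and 13.55 (-1.44 ± 0.14), with its partners DDIT3 (-1.43 ± 0.53) and CEBPB (-0.99 ± 0.25). DDIT3 differed by -1.75 within replicate A and -0.28 within C, and CEBPB by -1.25 and -0.41. Under BRCA2 siRNA 5 rose, TP73 (1.79 ± 0.40), FOXO1 (1.17 ± 0.19), FOXO4 (0.45 ± 0.14), FOXO3 (0.43 ± 0.08) and STAT5A (0.39 ± 0.12), and ATF4 fell (-0.50 ± 0.13), with a median of 0.11, against 13.4% of all genes higher and 13.8% lower. The interaction passed for FOXO1 (-1.58 ± 0.29, adjusted p = 0.0276) and ATF4 (0.95 ± 0.19, adjusted p = 0.0324), 2 of these 18 against 3.32% of all genes. Within replicates A and C it was -2.03 and -1.07 for FOXO1 and 1.14 and 0.67 for ATF4. Neither could pass in the fits in which no gene did, and 1 gene in all passed without BRCA2 siRNA replicate B without EGF. The other alternatives were not examined for these 2 genes.

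**Figure D5:**
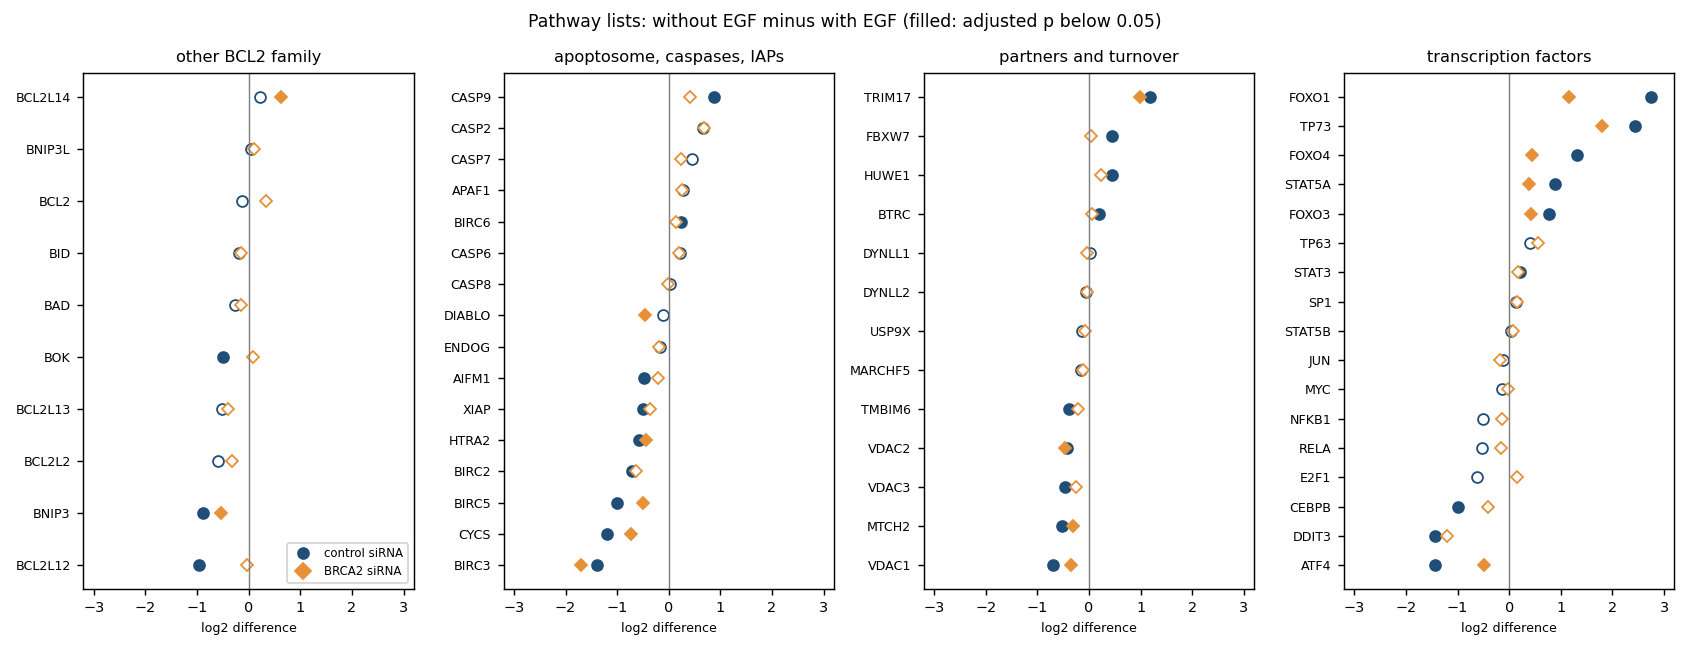
Log2 difference between libraries without and with EGF (horizontal axis) for the tested genes of the 4 pathway lists, less 3 that are not reported here, as circles under control siRNA and diamonds under BRCA2 siRNA, filled where the adjusted p was below 0.05. FOXO1 is the highest point (2.74) and BIRC3 under BRCA2 siRNA the lowest (-1.69).

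The genes whose pattern was most like that of the member with the smallest p in each role were named by Pearson's correlation over the 11 libraries, which share their groups and the centring. For BMF they were HAP1 (r = 0.982), LINC00525 (0.980) and SERPINF1 (0.979), for BCL2L1 they were PYGB (0.997), GALNT6 (0.996) and QSOX1 (0.996), and for BAX they were CBX3 (0.989), GPN3 (0.988) and PSMC2 (0.988).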

How the data were processed

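hTert-HME1 RNA was prepared with AllPrep, depleted of ribosomal RNA with RiboZero and made into libraries with Script-seq v2, per the labels' protocols. The authors deposited 1 table of log2 values for 40460 Ensembl genes in 11 libraries, from -2.94 to 20.62. TopHat2 2.0.11, DESeq2, limma and the hg19 build are named per the submitters' processing notes, with no role; the sources used here do not give the counter, annotation or log2 transform. The largest difference between the replicate A mean and that of B and C in any gene was 7.2e-09. The table holds no counts, so depth is unknown and its precision cannot be given.

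Symbols were matched by Ensembl identifier through the reference's gene table (30039 genes). Values were used as deposited. Genes of at least 10 on the linear scale (3.32 in log2) in at least 2 libraries were tested, 17945 in all. A model with 4 group means over all 11 libraries was fitted in limma 3.58.1 under R 4.3.3 with a mean-variance trend and 7 residual degrees of freedom, of which the centring uses 1 that the fit does not count. Tests were two-sided, adjusted by Benjamini and Hochberg over all genes tested within each of 5 comparisons, with a threshold of 0.05; errors after ± are moderated standard errors. The script was tested on simulated data with independent noise. These data had neither the centring nor deviations shared between libraries, so that test does not bear on either. Members, lists, motifs and tests were chosen with earlier results of these data known. All members were described; from pathway lists, called genes were named where 5 or fewer passed in a direction, otherwise the 4 with the smallest p, and others for contrast after their values were seen; 3 list genes are counted but not reported by name here. Same-lettered libraries were checked for shared deviations from group means, and 2 of 15 pairs correlated above 0.1. These were B and C with EGF between the siRNAs, at 0.70 each, and the centring constrains the A pairs. No pairing was assumed in the main fit, and a replicate block was an alternative. Alternatives covered filters, scaling, replicate terms, the fit's libraries and leaving out each library.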

Additional observations from a re-analysis of the deposited data

How the results depend on the processing

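Under 14 to 20 alternatives per member and comparison no called difference of a tested member changed sign. From replicates B and C alone the genes called were 2074 for EGF withdrawal under control siRNA (2 members), 47 under BRCA2 siRNA (0 members), and 0 for each siRNA comparison and the interaction (0 members without EGF); this fit has fewer libraries. Members called for withdrawal under BRCA2 siRNA were 3 under quantile normalization, 8 with libraries with EGF of A and B only and 3 with those of A and C only, the last pair chosen after seeing the data. For BRCA2 siRNA against control with EGF the single gene called, the pseudogene MTATP8P1, became 0 under the stricter filter, the replicate block, a term for replicate A, the groups compared alone and both selections of libraries with EGF. Without EGF the groups compared alone called 6776 genes (3687 in the fit of all libraries) and 7 members, and libraries with EGF of A and B only gave 6 members. The interaction called 930 genes with the replicate block (595 without), 375 with no trend and 990 genes with 4 members when libraries with EGF were of A and B only. The cause of these shifts was not tested.

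Leaving out 1 library gave 6164 to 10023 genes and 5 to 9 members for withdrawal under control siRNA, 2228 to 4800 and 1 to 5 under BRCA2 siRNA, 0 to 1 gene and 0 members for siRNA with EGF, 624 to 3595 and 1 to 2 without EGF, and 0 to 1606 and 0 to 4 for the interaction, where the highest counts came without control replicate C with EGF. The replicate block, which takes the letters as pairs, left 8 members for withdrawal under control siRNA and 6 instead of 5 under BRCA2 siRNA, where PMAIP1 was added. The correlations of same-lettered deviations ran from -0.37 to 0.70, and the highest were those of B and C with EGF between the siRNAs. The share of called genes that rose on withdrawal under control siRNA was 48.7%, and 36.0% under the stricter filter. It was 49.2% and 38.9% under BRCA2 siRNA.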

Other observations

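Members of the family at the foot of the scale gave values only. BCL2L10 lay between -0.32 and 0.15, the BH3-only gene HRK between 0.49 and 0.86 and BCL2L15 between 2.09 and 2.87 in all 11 libraries. The 2 highest values of BCL2L15, 2.72 and 2.87, were those of control siRNA without EGF, and the 2 lowest of BIK, 2.70 and 2.60, came from the same libraries. Neither gene passed the filter. With no filter BIK differed by -0.36 on EGF withdrawal under control siRNA (limma, adjusted p = 0.122).

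Between the siRNAs without EGF, genes of the pathway lists also differed, named here after their values were seen. BCL2L12 (0.90 ± 0.14), BOK (0.47 ± 0.11) and BNIP3 (0.43 ± 0.12) were higher with BRCA2 siRNA, 3 of 10 tested further family genes, against 11.2% of all genes higher and 9.36% lower. Of 17 apoptosome, caspase and inhibitor genes 3 were higher, among them CYCS (0.51 ± 0.12) and BIRC5 (0.66 ± 0.11), and none was lower, a share nearer to that of all genes. Of 14 partners and turnover factors VDAC1 (0.52 ± 0.12) and MTCH2 (0.34 ± 0.09) were higher and TRIM17 (-0.60 ± 0.19) and FBXW7 (-0.30 ± 0.08) lower. Of the transcription factors ATF4 was higher (0.92 ± 0.14), and FOXO1 (-1.51 ± 0.21), FOXO4 (-0.68 ± 0.16), STAT5A (-0.42 ± 0.13) and FOXO3 (-0.37 ± 0.09) were lower.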
